A study of Mus musculus with 6 samples.

Results

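The genes described here are 47 named genes of mouse chromosome 10, listed by a rule for lying around Hdac2, the gene deleted in this study. The rule uses no measured value, but it was chosen with earlier results of these data known. Of the 47, 42 had at least 1 probe set whose only gene symbol is theirs, 104 probe sets in all, among 18193 genes on the array. After a filter on low signal, 27 of the 47 and 10916 genes in all were tested; 15 lay below the filter and 5 (Hs3st5, Amd1, Rfx6, Cep85l and Kpna5) had no such probe set. The rule describes the genes as flanking Hdac2 within about 8 Mb. The RefSeq gene table of assembly GRCm38.p6, used only for the order and spacing of genes, placed 46 of them on chromosome 10 but only 25 within 8 Mb of Hdac2. These were 13 genes before Hdac2 in the direction of increasing coordinates, from Ncoa7 to Hs3st5, and 12 after it, from Marcks to Ddo. The other 21, from Fam162b to Smpdl3a, lay farther along the chromosome, between 193 and 263 annotated genes beyond Hdac2, largely in the reverse of the order in which the rule lists them. They are called the distant members below, and the label of a neighbour of Hdac2 does not hold for them in this assembly.

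Colon samples of 3 control and 3 HDAC2 KO mice, as the source labels number them, were compared, 1 array per sample. In the KO mice a floxed Hdac2 gene was deleted by Cre recombinase driven by the villin promoter, so deletion is limited to intestinal epithelial cells and Hdac2 stays intact in other cells of the colon. The animals were untreated, on normal diet, and of a mixed CD-1, 129 and C57BL/6 background. Their age, and whether the controls carried the floxed allele or Cre, are not given in the sources used here. The titles and genotype labels name HDAC2 alone for the KO group, while its description names HDAC1 as well. The labels name epithelium and also RNA of the colon.

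Hdac2 encodes a class I histone deacetylase, which removes acetyl groups from histone tails as the catalytic subunit of corepressor complexes. Genes that lie close together on a chromosome are inherited together, and an allele made by gene targeting carries with it DNA of the embryonic stem cell's strain on both sides. Neighbouring genes can also share regulatory elements with the targeted gene. A comparison along the chromosome therefore asks whether genes near the targeted locus differ between the groups more often than genes elsewhere. Strain origin along the chromosome was not measured here, and a change caused by loss of the enzyme, a linked strain difference and an effect of the altered locus on its neighbours cannot be told apart from these arrays.

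All values are log2 signals after RMA, so a difference of 1 is a doubling, and each difference is HDAC2 KO minus control. A gene was called at a limma adjusted p under 0.05, with Benjamini-Hochberg adjustment over all 10916 genes. Array medians over all probe sets lay between 6.17 and 6.21. HDAC2 KO replicate 2 stood apart most from the mean of its group: its deviation, as a root mean square, was 0.080 over all genes tested and 0.119 over the 27 members; the other arrays lay between 0.042 and 0.066 over all genes and between 0.038 and 0.084 over the members. Markers of colon epithelium were among the highest signals, with a list mean between 13.17 and 13.19 in control and between 13.29 and 13.32 in HDAC2 KO. Xist, expressed from the inactive X chromosome of females, read 12.02 ± 0.023 in control and 11.54 ± 0.022 in the HDAC2 KO group (n = 3, SD). The Y-linked gene Kdm5d went the other way, from 6.96 ± 0.062 to 7.63 ± 0.25, as did Eif2s3y, from 7.52 ± 0.039 to 8.13 ± 0.22. Xist, Kdm5d and Eif2s3y read above the filter level of 6.66 on every array, although the source labels name a single mouse for each. Uty, a further sex-linked gene, lay below it, at 5.82 ± 0.23 in control and 6.21 ± 0.11 in HDAC2 KO. Signal over background could not be measured from these values, and whether samples hold RNA of more than 1 animal was not tested. The groups differed in sex-linked signal, and the part of this in the results below was not tested.

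The targeted gene was lower, by a small amount. The brightest Hdac2 probe set gave 10.40, 10.37 and 10.43 in the 3 controls and 10.21, 10.12 and 10.24 in the 3 knockouts. The groups did not overlap, and the difference was -0.21 (SE 0.040, limma adjusted p = 0.00893). A further probe set averaged 9.18 ± 0.036 in control and 8.97 ± 0.17 in knockout samples (n = 3 each, SD), with an exact two-sided permutation p of 0.1, the smallest that 3 against 3 arrays allow. The third Hdac2 probe set, of low signal, averaged 5.10 ± 0.20 and 5.03 ± 0.28 with overlapping groups (difference -0.078, exact permutation p = 0.7). The position of these probe sets in the gene was not analysed here, so they do not check the deletion itself. In RNA of whole samples, fewer cells of a type and less RNA per cell cannot be told apart.

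Of the 27 tested members, 7 were called, or 25.9%, against 17.9% of all genes tested. Ncoa7, Tpd52l1, Rnf217 and Pln were higher, 4 of 27, where 9.68% of all genes were called higher, and Fyn, Man1a and Smpdl3a were lower, 3 of 27, where 8.2% of all genes were called lower. The members' median difference was -0.0076, beside 0.0032 over all genes, with 13 members above 0 and 14 below. Control and HDAC2 KO arrays did not overlap in 13 members (48.1%), against 37.7% of all genes. Leaving out 1 array at a time gave between 5 and 9 called members (18.5% to 33.3%, beside 10.4% to 19.3% of all genes). The 7 calls spread over the chromosome. They were 4 of 17 tested members within 8 Mb of Hdac2 (23.5%) and 3 of 10 distant members (30%), beside the 17.9% of all genes. No test of the difference in share was made. The counts rest on few genes, and each array left out could move them by up to 2.

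**Figure D1:**
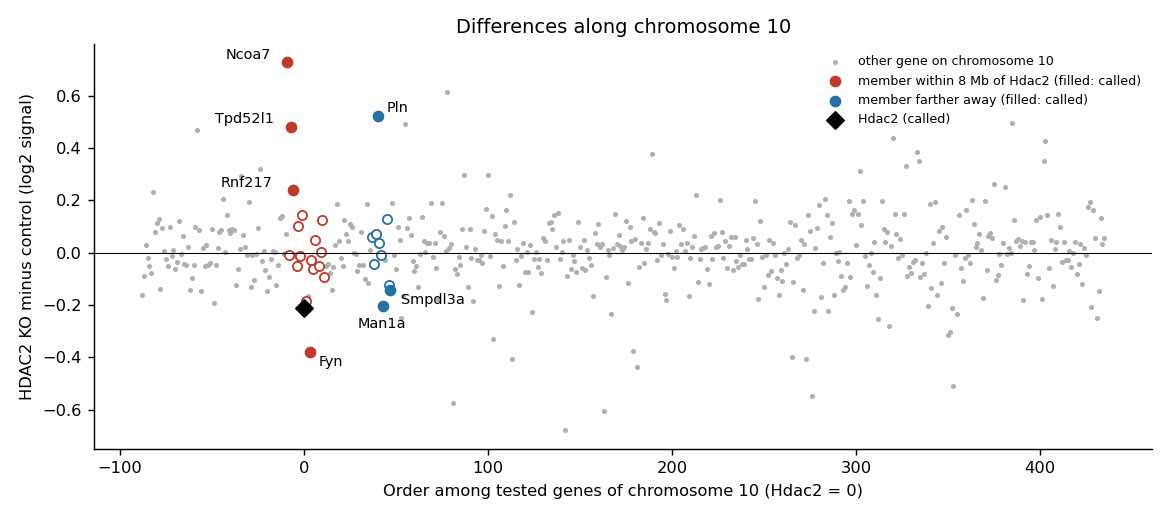
Difference between HDAC2 KO and control (log2 signal, y axis) for 524 tested genes of chromosome 10, in their order along the chromosome with Hdac2 at 0 (x axis); members within 8 Mb are red, distant members blue, other genes grey, Hdac2 a black diamond, and filled coloured points are called. Ncoa7 has the highest difference of all, 0.73, while the open red points nearest to Hdac2 lie among the grey ones.

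The called rises were those of the distant member Pln (0.52) and of 3 members within 8 Mb. These 3 lay before Hdac2, at the far end of the stretch. Ncoa7, Hddc2, Tpd52l1 and Rnf217 are 4 of the 6 members at that end, 57 to 42 annotated genes before Hdac2. Of the 8 tested members before Hdac2, 3 were called higher (37.5%), where 9.68% of all genes were. All 3 are among these 4 genes, but the plan did not set this end apart, so 3 of 4 is no separate result. The count rests on few genes, and the difference in share was not tested. The start regions of these 4 genes are shown because they are the tested members of this end. They are in chromosome order but with other annotated genes between some of them, and Hddc2 alone among them was not called. Each sequence is the 250 bases before an annotated start from the RefSeq table for GRCm38.p6, 5′ to 3′ on the gene's own strand. Ncoa7 has 2 annotated starts in that table, on the minus strand, at chr10:30803327-30803576 (upstream) and chr10:30655868-30656117 (downstream). Hddc2 lies on the plus strand (chr10:31313155-31313404), and Tpd52l1 (chr10:31445959-31446208) and Rnf217 (chr10:31609726-31609975) lie on the minus strand. Capitals mark matches, on either strand, to any of 5 motifs. They are the GC box core GGGCGG, the CCAAT box, the TATA box core TATAAA, the interferon response element core (GAAA, any 2 bases, GAAA) and the CArG box of serum response factor.

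Ncoa7 upstream start: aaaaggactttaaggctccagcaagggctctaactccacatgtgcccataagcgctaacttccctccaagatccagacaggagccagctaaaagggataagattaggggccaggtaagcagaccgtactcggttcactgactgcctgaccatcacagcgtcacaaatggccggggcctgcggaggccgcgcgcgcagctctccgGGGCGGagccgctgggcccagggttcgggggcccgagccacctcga

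Ncoa7 downstream start: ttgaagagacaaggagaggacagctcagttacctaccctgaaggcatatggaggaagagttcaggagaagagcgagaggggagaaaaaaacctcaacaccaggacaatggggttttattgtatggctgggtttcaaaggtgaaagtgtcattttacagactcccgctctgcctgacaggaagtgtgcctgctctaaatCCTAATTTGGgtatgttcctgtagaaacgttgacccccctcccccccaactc

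Hddc2: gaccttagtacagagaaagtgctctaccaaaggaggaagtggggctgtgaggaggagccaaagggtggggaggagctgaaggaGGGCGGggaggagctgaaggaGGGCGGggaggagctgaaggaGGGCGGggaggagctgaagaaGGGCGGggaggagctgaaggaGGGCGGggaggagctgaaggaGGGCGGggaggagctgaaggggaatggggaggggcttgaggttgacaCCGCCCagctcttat

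Tpd52l1: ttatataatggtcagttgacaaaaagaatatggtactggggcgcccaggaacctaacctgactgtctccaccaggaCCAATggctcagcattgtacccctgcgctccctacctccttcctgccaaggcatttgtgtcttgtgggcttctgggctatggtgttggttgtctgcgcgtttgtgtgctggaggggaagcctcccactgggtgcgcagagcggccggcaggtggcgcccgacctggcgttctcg

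Rnf217: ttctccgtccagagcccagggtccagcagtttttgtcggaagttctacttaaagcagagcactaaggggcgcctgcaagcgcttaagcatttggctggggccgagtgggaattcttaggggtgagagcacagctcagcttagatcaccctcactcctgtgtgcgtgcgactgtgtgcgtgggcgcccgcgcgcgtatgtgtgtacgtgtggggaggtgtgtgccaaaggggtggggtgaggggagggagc

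These 5 windows have no motif in common. GGGCGG was found once upstream of the first Ncoa7 start and 7 times upstream of Hddc2, mostly in a short tandem repeat; 32.7% of 32851 windows of 250 bases hold it. A CArG box, held by 1.47% of windows, was found at the downstream Ncoa7 start, and CCAAT, held by 33.8%, at Tpd52l1. None of the 5 holds the TATA box core (12.4% of windows) or the interferon response element core (2.98%). CG dinucleotides numbered 16 and 3 in the Ncoa7 windows, 7 in that of Hddc2, 11 in that of Tpd52l1 and 14 in that of Rnf217, against a median of 6 over all windows. A match is a string of letters, not a binding site.

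Ncoa7, which encodes a nuclear receptor coactivator of the TLDc domain family, read 8.23, 8.22 and 8.22 in control and 8.94, 8.96 and 8.95 in HDAC2 KO. Every KO array was above every control array, and the spread within each group was far below the gap between them. Ncoa7 was 1.66-fold higher (difference 0.73, SE 0.030, limma adjusted p = 3.02e-06), the largest rise of the 524 tested genes of chromosome 10 and number 37 of 10916 genes by p. A further Ncoa7 probe set near the bottom of the scale, from 3.46 to 3.65 on all arrays, showed no such gap. Which annotated start or isoform either probe set reads was not tested.

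Hddc2, which encodes an HD-domain nucleotidase, lies between Ncoa7 and Tpd52l1 and was not called. It read 8.30, 8.33 and 8.28 in control and 8.34, 8.25 and 8.29 in HDAC2 KO. The groups overlapped, and the 95% confidence interval of the difference ran from -0.095 to 0.076 (limma adjusted p = 0.900). Tpd52l1, the next gene of the list, encodes a coiled-coil protein of the tumor protein D52 family. It read 7.81, 7.74 and 7.75 in control and 8.35, 8.16 and 8.22 in HDAC2 KO. The groups were well apart, and the signal was 1.39-fold higher (difference 0.48, SE 0.053, limma adjusted p = 0.000665).

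Rnf217, which encodes a RING-type E3 ubiquitin ligase, read 8.55, 8.54 and 8.42 in control and 8.71, 8.84 and 8.68 in HDAC2 KO. It was 1.18-fold higher (difference 0.24, SE 0.054, limma adjusted p = 0.0194) without overlap. A further Rnf217 probe set above the filter differed by a like 0.24. It was no longer called with control replicate 3 left out (adjusted p = 0.0670), with no signal filter (0.0584) and with each probe set of the array tested by itself (0.105).

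The remaining members at this end, Nkain2 and Clvs2, had low signals. Clvs2, which encodes the neuronal lipid-binding protein clavesin 2, read 4.26, 4.30 and 4.33 in control and 4.66, 4.66 and 4.98 in HDAC2 KO. The groups did not overlap, but all 6 values lie far below the filter level of 6.66, and a further Clvs2 probe set lay between 3.42 and 3.57 with the groups mixed. With all probe sets tested, the difference of 0.47 had a limma adjusted p of 0.0328, and 0.0565 with the replicate number as a block. Among genes without the filter, where 7.62% of all genes passed, 5 of 42 members did, Ncoa7, Tpd52l1, Clvs2, Fyn and Pln. Clvs2 had a limma adjusted p of 0.0210 in that fit. In the fit of all probe sets it lost its call without control replicate 1, 2 or 3 or HDAC2 KO replicate 1. The limma adjusted p then lay between 0.0560 and 0.127. Nkain2, which encodes a protein that binds the sodium pump, was at 3.78 ± 0.21 in control and 3.87 ± 0.12 in the knockouts (n = 3, SD).

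**Figure D2:**
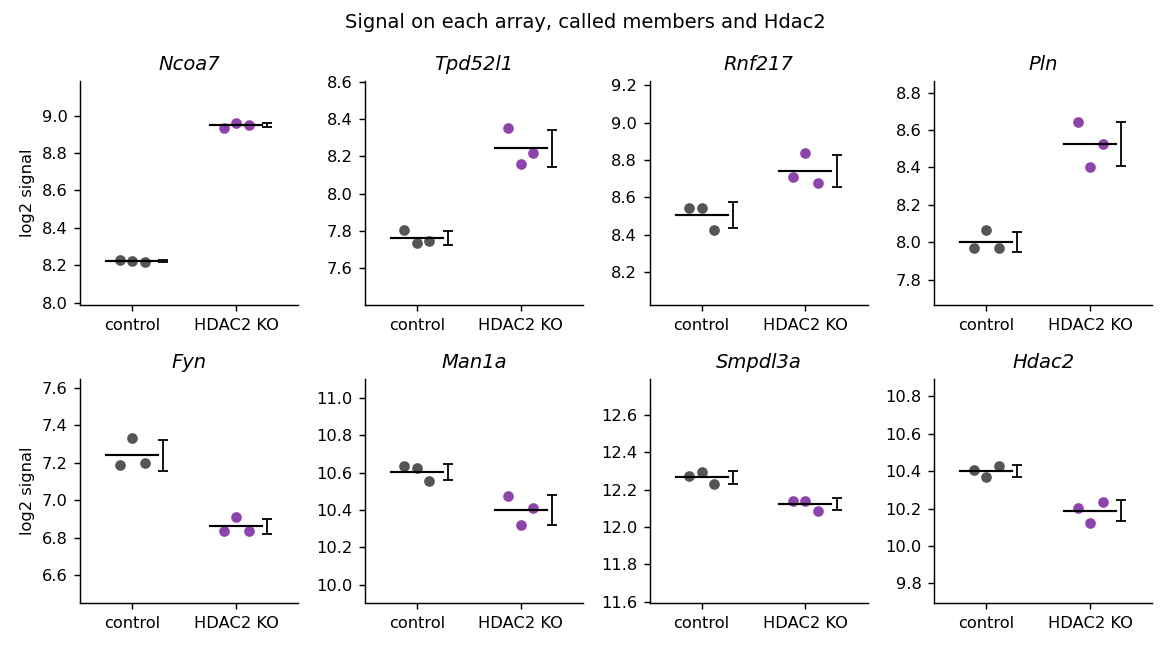
Log2 signal on each array for the 7 called members and Hdac2, with control (grey, n = 3) and HDAC2 KO (purple, n = 3); lines are group means, bars are ± SD, and each panel spans the same range on its y axis. Ncoa7 shows the widest gap between tight groups, from a mean of 8.22 to 8.95, and the panels of Man1a, Smpdl3a and Hdac2 show gaps of -0.21 to -0.14.

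Closer to Hdac2 on the same side, the tested members Tspyl1, Tspyl4, Nt5dc1 and Frk were not called. Tspyl1 and Tspyl4 encode relatives of a nucleosome assembly protein. Tspyl4 read 7.69, 7.80 and 7.74 in control and 7.79, 7.83 and 7.90 in HDAC2 KO, with overlap (difference 0.10, 95% interval -0.0031 to 0.20, limma adjusted p = 0.171). Tspyl1 read 9.82, 9.69 and 9.82 in control and 9.79, 9.36 and 10.01 in HDAC2 KO. Its KO arrays spanned the control values on both sides, which left a wide interval, from -0.38 to 0.27 (limma adjusted p = 0.843).

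Nt5dc1, a gene of the nucleotidase domain family, read 9.34, 9.38 and 9.31 in control and 9.37, 9.13 and 9.50 in HDAC2 KO. The groups overlapped, with HDAC2 KO replicate 2 the lowest of the 6 arrays (difference -0.013, interval -0.20 to 0.18, limma adjusted p = 0.937). Frk, which encodes a Src-related tyrosine kinase of epithelial cells, is the tested gene next to Hdac2 on this side. It read 9.85, 9.79 and 9.92 in control and 10.06, 9.95 and 9.99 in HDAC2 KO. The groups did not overlap, but the difference of 0.15 (SE 0.046, interval 0.040 to 0.25) did not pass (limma adjusted p = 0.0637). Without HDAC2 KO replicate 2 it passed, at an adjusted p of 0.0416, and the one Frk probe set not marked as binding several transcripts differed by 0.028 (adjusted p = 0.891). Of the members of this side below the filter, Rwdd1 went from 4.47 ± 0.042 to 4.29 ± 0.058 without overlap, and Dse, the dermatan sulfate epimerase gene, was at 5.05 ± 0.15 and 4.81 ± 0.29 with overlap (n = 3, SD). Rwdd1 did not pass in the fit without a filter (limma adjusted p = 0.0655).

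**Figure D3:**
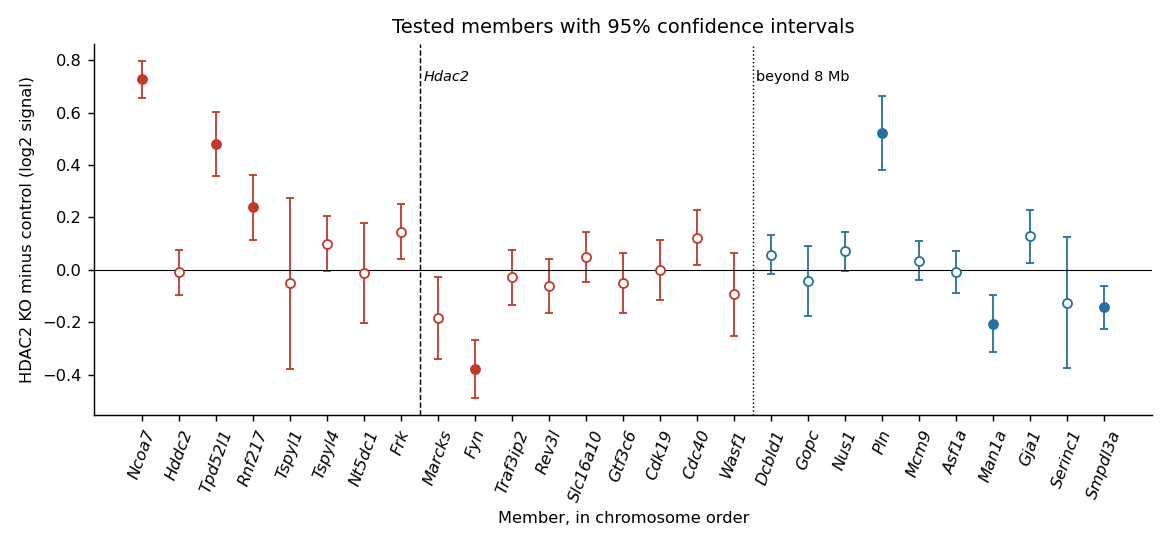
Difference between HDAC2 KO and control (log2 signal, y axis) with its 95% confidence interval for the 27 tested members in chromosome order (x axis); filled points are called, red lies within 8 Mb and blue beyond, the dashed line marks Hdac2 and the dotted line the start of the distant members. The highest points are Ncoa7 (0.73) at the left end, Pln (0.52) among the distant members and Tpd52l1 (0.48), and of the members beside the dashed line the intervals of Frk (0.040 to 0.25), Marcks (-0.34 to -0.027) and Fyn leave out 0, of which Fyn alone is called.

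Marcks is the tested gene next to Hdac2 on the other side, and it was not called. It encodes a major substrate of protein kinase C that binds the plasma membrane and actin. Its probe set of highest signal read 11.22, 11.11 and 11.19 in control and 11.04, 10.83 and 11.09 in HDAC2 KO. The groups did not overlap, and the difference was -0.18 (SE 0.068, interval -0.34 to -0.027, limma adjusted p = 0.103). With the replicate number as a block the adjusted p was 0.0435. Without probe sets that can bind several transcripts, Marcks was called (difference -0.17, adjusted p = 0.0300). Without HDAC2 KO replicate 2 the difference was -0.11 (adjusted p = 0.135). Marcks was called in 4 of 16 alternatives, so its call depends on the probe set and the processing. All 6 Marcks probe sets above the filter were lower in HDAC2 KO, by 0.044 to 0.22 on the log2 scale. Among the 10 annotated genes closest to Hdac2, 5 on each side, Marcks was the only one tested.

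Fyn was the only called member after Hdac2 within 8 Mb. It encodes a Src family tyrosine kinase that acts in T cell receptor signalling and in neurons. It read 7.19, 7.33 and 7.20 in control and 6.84, 6.91 and 6.84 in HDAC2 KO. The groups did not overlap, and Fyn was 23.1% lower (difference -0.38, SE 0.048, limma adjusted p = 0.00127). Its other probe set fell from 6.88, 6.89 and 6.94 to 6.47, 6.54 and 6.43. T cell markers were lower on the same arrays: of 12 listed, 9 had a probe set, 4 were tested and all 4 (Cd3d, Cd3e, Thy1 and Ccl5) were lower. The mean level of the 9 lay between 7.05 and 7.08 in control and between 6.48 and 6.55 in HDAC2 KO. Among the 4, Cd3d fell by 1.37 and Ccl5 by 0.74 on the log2 scale, and Thy1 by 0.35 and Cd3e by 0.26, the last with overlapping groups, beside 0.38 for Fyn. The markers below the filter were Cd3g, Cd8a, Cd2, Gzma and Gzmb, of which Gzma had the higher mean in HDAC2 KO. The part of T cell RNA in the Fyn result was not tested.

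The start of Fyn is shown because Fyn is the called member with the shortest way to Hdac2, 22 annotated genes. It is on the plus strand at chr10:39369549-39369798, with 1 match each to CCAAT and GGGCGG in capitals and 21 CG dinucleotides.

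Fyn: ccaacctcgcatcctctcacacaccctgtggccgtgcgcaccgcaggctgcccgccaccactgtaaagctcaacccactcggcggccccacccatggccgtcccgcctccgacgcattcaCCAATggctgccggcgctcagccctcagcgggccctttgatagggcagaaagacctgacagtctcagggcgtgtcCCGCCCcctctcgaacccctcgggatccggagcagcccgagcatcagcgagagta

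The other 7 tested members after Hdac2 within 8 Mb differed little. Traf3ip2, which encodes an adaptor of interleukin receptors, read 9.10, 9.03 and 9.02 in control and 9.08, 8.94 and 9.04 in HDAC2 KO. Its groups overlapped (interval -0.13 to 0.078, limma adjusted p = 0.724). Cdc40, a splicing factor gene, differed by 0.12 without overlap (interval 0.019 to 0.23, limma adjusted p = 0.102). Cdk19, a kinase of the Mediator complex, differed by 0.00042 (interval -0.11 to 0.11). Rev3l, the catalytic subunit gene of a translesion DNA polymerase, the amino acid transporter gene Slc16a10, Gtf3c6, a subunit gene of a general factor of RNA polymerase III, and the actin regulator gene Wasf1 had differences between -0.094 and 0.048. Below the filter, Tube1, which encodes epsilon tubulin, read 6.54, 6.39 and 6.62 in control and 6.44, 6.61 and 6.67 in HDAC2 KO, with the groups mixed. Ddo, the D-aspartate oxidase gene, averaged 5.24 ± 0.16 and 5.17 ± 0.12 in the same order (n = 3, SD).

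Among the distant members, Pln changed most. It encodes phospholamban, an inhibitor of the calcium pump of the sarcoplasmic reticulum in heart and smooth muscle. It read 7.97, 8.06 and 7.97 in control and 8.64, 8.40 and 8.53 in HDAC2 KO. The groups were well apart, and Pln was 1.44-fold higher (difference 0.52, SE 0.061, limma adjusted p = 0.000896). Its other 2 probe sets rose by like amounts, 0.53 and 0.50. Of 10 smooth muscle markers, all tested, 4 rose (Cnn1, Des, Actg2 and Myl9), 0 fell and 6 were not called, with differences from -0.071 for Synm to 0.32 for Cnn1 and a median of 0.090. The mean level of the 10 lay between 11.79 and 11.82 in control and between 11.90 and 11.93 in HDAC2 KO. The rise of Cnn1, the calponin gene, was below that of Pln, and the part of smooth muscle RNA in the Pln result was not tested.

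The Pln start, on the plus strand at chr10:53337436-53337685, is shown as that of the one distant member that rose. It holds 1 match to CCAAT, 1 to TATAAA and 1 CG dinucleotide, and no CArG box.

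Pln: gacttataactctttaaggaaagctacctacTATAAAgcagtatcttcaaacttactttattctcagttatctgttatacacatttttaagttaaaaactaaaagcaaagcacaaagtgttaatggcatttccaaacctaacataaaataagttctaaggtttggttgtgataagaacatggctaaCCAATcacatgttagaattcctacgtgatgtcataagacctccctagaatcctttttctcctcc

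Man1a, which encodes a Golgi mannosidase that trims N-glycans, read 10.63, 10.63 and 10.56 in control and 10.47, 10.32 and 10.41 in HDAC2 KO. It was 1.15-fold lower (difference -0.21, SE 0.047, limma adjusted p = 0.0205) without overlap. Its other probe set differed by 0.016, so the fall was seen by 1 of 2 probe sets. With the mean of both, the difference was -0.094 and not called (adjusted p = 0.155), nor was Man1a called with control replicate 1 (0.0839) or 2 (0.0736) left out. The Man1a call was also lost with no signal filter (0.0626) and with each probe set of the array tested by itself (0.119). Smpdl3a, which encodes a phosphodiesterase related to acid sphingomyelinase, read 12.27, 12.29 and 12.23 in control and 12.14, 12.14 and 12.08 in HDAC2 KO. The groups did not overlap, but the fall was small, 1.10-fold (difference -0.14, SE 0.035, limma adjusted p = 0.0282). Its call was lost without control replicate 1 or 2 or HDAC2 KO replicate 1 or 3, at adjusted p between 0.0686 and 0.103. It was also lost with no signal filter (0.0870) and with each probe set of the array tested by itself (0.182).

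The other 7 tested distant members were not called. Gja1, which encodes the gap junction protein connexin 43, read 10.09, 10.01 and 10.03 in control and 10.18, 10.10 and 10.23 in HDAC2 KO. Its groups did not overlap (difference 0.13, interval 0.025 to 0.23, limma adjusted p = 0.0863), and its 4 probe sets above the filter were all above 0. Nus1, which encodes a subunit of the enzyme that makes dolichol precursors, differed by 0.071 without overlap (limma adjusted p = 0.172), and its 5 probe sets above the filter were between 0.071 and 0.19. Serinc1, Gopc, Dcbld1, the helicase gene Mcm9 and the histone chaperone gene Asf1a had differences between -0.13 and 0.059. Of the 9 distant members below the filter, Pkib, which encodes an inhibitor of protein kinase A, had the largest difference, from 5.49 ± 0.13 to 5.25 ± 0.13 (n = 3, SD) with overlap. The receptor kinase gene Ros1, the heat shock factor gene Hsf2, the brain fatty acid binding protein gene Fabp7 and Gprc6a, Vgll2, Slc35f1, Fam184a and Fam162b had means between 4.46 and 6.23.

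**Figure D4:**
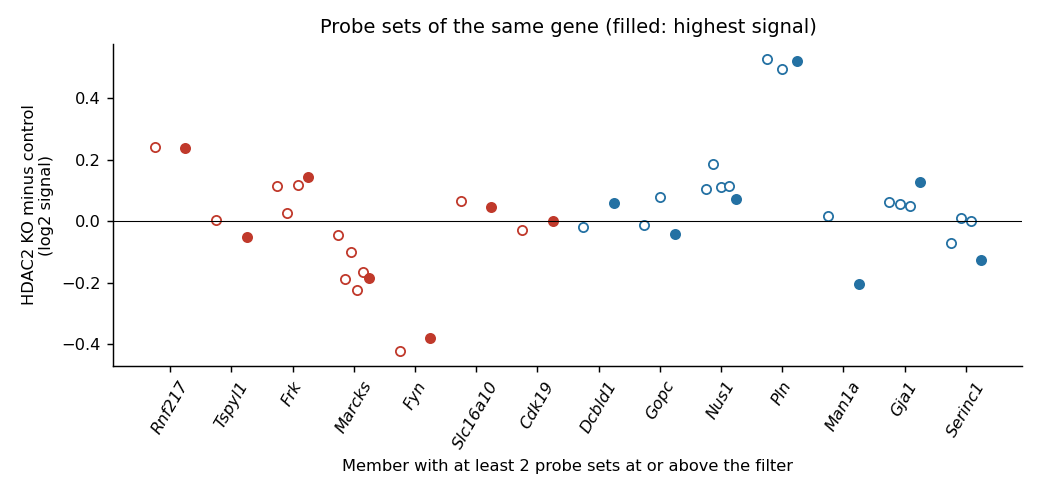
Difference between HDAC2 KO and control (log2 signal, y axis) of each probe set at or above the signal filter, for 14 members with at least 2 such probe sets (x axis, chromosome order), red within 8 Mb of Hdac2 and blue beyond; filled points are the probe set of highest signal. The probe sets of Rnf217, Fyn and Pln lie together, while those of Man1a are 0.22 apart.

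Probe sets of the same gene gave a further reading of the members. Their positions were not analysed and some can bind several transcripts, so their readings may not be independent. Of 14 members with at least 2 probe sets above the filter, 8 had all of them on the same side of 0: Rnf217, Frk, Marcks, Fyn, Slc16a10, Nus1, Pln and Gja1. The other 6 were Tspyl1, Cdk19, Dcbld1, Gopc, Man1a and Serinc1, in which differences ran from -0.21 to 0.080. The like share over all genes with several probe sets was not counted, so 8 of 14 has no background here. With every probe set of the array tested one by one, 8 of the members' 104 passed, against 3.8% of all probe sets. Of the 8, 6 were higher, where 1.72% of all were, and 2 lower, where 2.08% were. They belonged to Ncoa7, Tpd52l1, Clvs2, Pln and Fyn, and for Pln and Fyn every probe set passed. Ncoa7 and Tpd52l1 each had a single probe set above the filter, so their rises rest on 1 probe set each.

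The wider neighbourhood was read from all annotated genes, not only from members. With 100 annotated genes taken before Hdac2 and 100 after it, 41 were tested and 7 called (17.1%), 5 higher and 2 lower, beside 87 of the 482 tested genes in the rest of chromosome 10 and 17.9% of all genes. The median difference was -0.012 in the neighbourhood and 0.0085 in the rest of the chromosome. Within 25 annotated genes on each side, 1 of 9 tested genes was called, Fyn, and within 50, 3 of 17, Fyn, Tpd52l1 and Rnf217. Outside the members, 3 of 24 tested neighbours were called, named here after their values were seen: Trmt11, a tRNA methyltransferase gene, at 0.14 (SE 0.032), Sesn1, a stress-induced sestrin gene, at 0.18 (SE 0.045), and Smpd2, a neutral sphingomyelinase gene, at -0.14 (SE 0.039). Trmt11 lies 3 annotated genes beyond Ncoa7, and the tested genes between them, Hint3 and Gm20300, were not called. Elsewhere on the chromosome, falls as large as -0.68 were reached, by the leukocyte integrin gene Itgb2.

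**Figure D5:**
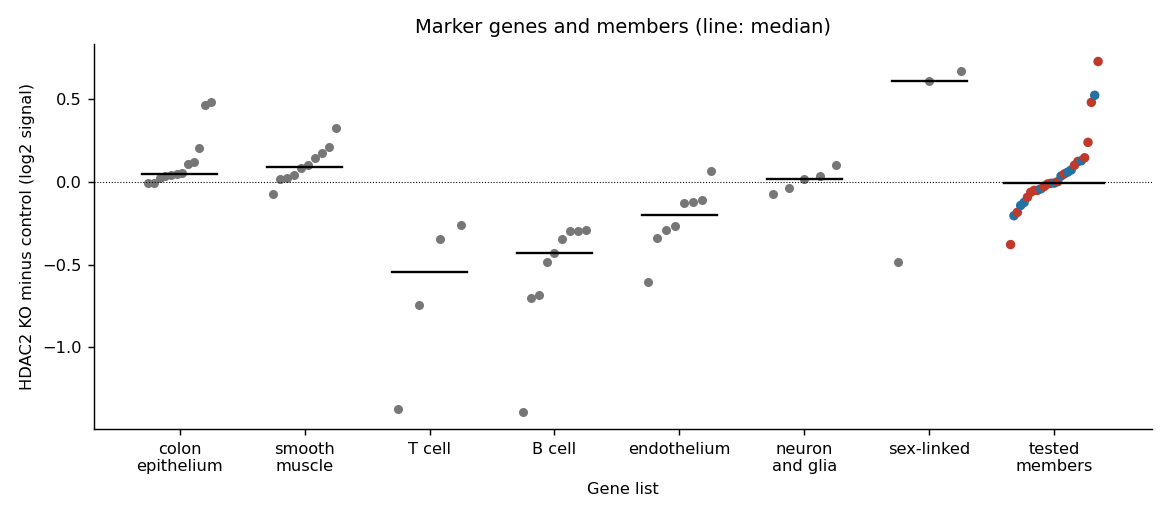
Difference between HDAC2 KO and control (log2 signal, y axis) of the tested genes in 7 marker lists (grey points, 1 per gene, sorted) and of the 27 tested members (red within 8 Mb of Hdac2, blue beyond); lines are medians. T cell and B cell markers lie below 0, with medians of -0.54 and -0.43, while the members' median is -0.0076.

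Several lists of markers of other cells moved, and others were mixed or little changed. Adipocyte markers changed most: 4 of 5 tested were lower, led by Adipoq, the adiponectin gene, at -3.02, and Pparg was higher; their list mean was between 9.31 and 9.39 in control and between 7.61 and 7.74 in HDAC2 KO. All 9 tested B cell and plasma cell markers were lower, with a median of -0.43, and 4 of 8 endothelial markers, led by Vwf at -0.60, while 0 of 5 neuron and glia markers were called. Macrophage and dendritic cell markers were mixed, with 3 of 7 tested lower and 1 higher. So were enteroendocrine markers, with 3 of 8 tested higher and 2 lower. Among 8 fibroblast markers 1 was lower and 7 were not called. Of 12 colon epithelium markers 3 were higher, Krt20, Car1 and Cdx2, and 0 lower, with a median of 0.049. The differences of the 12 ran from -0.0083 for Lgals4 to 0.48 for Krt20, with Car1 at 0.46, Cdx2 at 0.20, Slc26a3 at 0.046 and Cdh1 at -0.0053, beside 0.73 for Ncoa7 and 0.48 for Tpd52l1. The part of these shifts in the members' results was not tested. HDAC2 KO replicate 2 was the lowest KO array in 15 of 27 members (55.6%) and in 47.5% of all genes tested, and the members' median difference without it was 0.023.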

How the data were processed

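Biotin-labelled RNA of 6 colon samples was hybridised to 1 Affymetrix array each. The authors deposited log2 values after RMA; the submitters' processing notes name that method without a version, and the log2 scale follows from their range, 2.39 to 14.6. RMA equalises the arrays' distributions. Of 45101 probe sets, 34945 had 1 gene symbol in the platform annotation of 2016, and 34741 of these matched GRCm38.p6 by Entrez identifier. The probe set of highest mean stood for each gene, and genes at or above the 40th percentile (6.66) were tested with limma 3.58.1 in R 4.3.3 (group as the sole term), after a test on simulated data. The 3 arrays per group limit the precision. No label gives a hybridisation batch, and none was tested.

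The members, lists and rules were chosen with earlier results of these data known. Named in full are called members, the 4 listed next to Hdac2 on each side, Hdac2, and members with a called probe set. A planned split into 4 blocks in the listed order was replaced, since the gene table places 21 members elsewhere; motifs were chosen after the calls were known. The 250 bases before each start came from RefSeq sequences for GRCm38.p6, which matched 38 of the 47 members.

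The source labels name 1 numbered mouse per array, and both groups use the numbers 1 to 3. Arrays that share a number deviated together from their group means (r of 0.20 to 0.34; -0.37 to 0.18 for other pairs of arrays). Control 1 and HDAC2 KO 3, of unlike number, had an r of 0.18, close to the 0.20 of the arrays numbered 3. With 3 arrays per group the deviations within a group constrain each other, so these values cannot settle whether arrays are paired. No label states a pairing. The replicate number entered as a block in an alternative fit.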

Additional observations from a re-analysis of the deposited data

How the results depend on the processing

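Calls of Ncoa7, Tpd52l1, Pln and Fyn held in every alternative that kept the gene, 15 or 16 for each, with differences of 0.72 to 0.73, 0.43 to 0.53, 0.46 to 0.61 and -0.41 to -0.33. At an adjusted p under 0.01, 4 of 27 members (14.8%) and 954 of 10916 genes (8.74%) were called, against 7 and 1952. At an unadjusted p under 0.05, 11 members (40.7%) and 3444 genes (31.6%) were. Array weights gave 3506 genes (32.1%) and a members' median of 0.016. In the neighbourhood they gave 12 of 41 genes (29.3%) instead of 7, a share below that of all genes. With each probe set of the array in the test, 926 of the genes' chosen probe sets passed. The neighbourhood held 1 call within 25 annotated genes on each side and 3 within 50. Of the members' 104 probe sets, 14 passed with an intensity trend and robust variances instead of 8. That setting also raised the genes called from 1952 to 2284, and its share over all probe sets was not counted. Among probe sets above the filter, 13 of the members' 56 passed, where 14.1% of all passed. This last setting, and the split at 8 Mb, were added after seeing the data. Hdac2 lost its call without probe sets that can bind several transcripts (-0.22, adjusted p = 0.0957) and with all probe sets tested (-0.21, adjusted p = 0.0768).

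Leaving out 1 array at a time gave 5 to 9 called members (18.5% to 33.3%), beside 1130 to 2107 genes in all (10.4% to 19.3%). It gave 3 to 5 within 8 Mb (17.6% to 29.4%) and 3 to 8 in the neighbourhood (7.32% to 19.5%). Member probe sets called were 5 to 8 of 104, the members' median was -0.023 to 0.023, and the Hdac2 difference was -0.24 to -0.18. The count of 1130 came without control replicate 1, and 1276 and 1274 without control replicate 2 and HDAC2 KO replicate 1. In the neighbourhood, 4 of 41 (9.76%) were left without control replicate 1 or HDAC2 KO replicate 1, beside 10.4% and 11.7% of all genes. Without control replicate 3, 3 of 41 (7.32%) were left, beside 12.7% of all genes. Without HDAC2 KO replicate 1, 5 member probe sets passed. Differences near 0 turned sign without a call: Nt5dc1 to 0.025 with array weights, 0.0051 without control replicate 2 and 0.088 without HDAC2 KO replicate 2, and Traf3ip2 to 0.012 without HDAC2 KO replicate 2; with 1 array left out they ran from -0.095 to 0.088 and from -0.057 to 0.012. Frk was called in 5 of 16 alternatives and Marcks in 4 of 16. The cause of these shifts was not tested. With the replicate block 8 members (29.6%) were called, beside 17.8% of all genes. Apart from Marcks and Clvs2, the block changed no call of a member named in full or of Hdac2.

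The 15 members below the filter level lie low on the scale, where signal over background could not be measured from these values, and the Clvs2 difference was called in 6 of 11 alternatives.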

Other observations

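Genes known to vary between mouse strains were read as a description of the mixed background. Of 12 symbols listed, 9 had a probe set and 6 were tested: Wdfy1 was higher (0.14, SE 0.035), Alad (-0.16, SE 0.037) and H2-Ea (-0.50, SE 0.053) were lower, and 3 were not called. H2-Ea encodes an MHC class II chain of B cells and other antigen-presenting cells, and all 9 tested B cell and plasma cell markers were lower as well. Hdac1, the closest paralog of Hdac2, on another chromosome, averaged 10.31 ± 0.032 in the controls and 10.47 ± 0.053 in the knockouts, with n = 3 each and ± the SD (limma adjusted p = 0.0321).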
